A study of Homo sapiens with 3 samples.

Results

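The genes described here are those of respiratory complex I, the NADH dehydrogenase of mitochondria. They were taken by name, as every gene whose single guide RNAs (sgRNAs) are named NDUFA, NDUFB, NDUFC, NDUFS, NDUFV or NDUFAF followed by a digit, and NDUFAB1. The rule found 49 gene identifiers under 47 gene names, with 408 sgRNAs, among 20381 gene identifiers and 200682 sgRNAs seen in the 3 libraries. NDUFA7 and NDUFB8 each carried 2 identifiers, of which ENSG00000167774 for NDUFA7 and ENSG00000255339 for NDUFB8 are annotated as readthrough genes that join a neighbour. Of the 49 identifiers, 7 were core subunits, 32 were accessory subunits and 7 were assembly factors. The remaining 3 carry the name without being complex I subunits and are counted with the members but in no class. They are NDUFA4, which is a subunit of complex IV, its relative NDUFA4L2, and NDUFC2-KCTD14, a readthrough of NDUFC2 and its neighbour.

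Complex I is the entry point of most electrons into the respiratory chain. Its matrix arm takes electrons from NADH through a flavin and a chain of iron-sulphur clusters to ubiquinone, and its membrane arm pumps protons across the inner membrane. The core subunits carry out the chemistry and are shared with bacteria, the accessory subunits surround them, and the assembly factors help to build the complex without staying in it. The core subunits of the membrane arm are encoded by mitochondrial DNA and so were not among the genes targeted here. Loss of complex I slows the growth of many cultured cells, to an extent that depends on the medium.

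The cells were K-562, an established human leukaemia line with little MHC class I on its surface, made to express the nuclease Cas9. All 3 libraries came from cells infected with the genome-wide Bassik knockout library at a multiplicity of 0.3 with puromycin (1 μg/mL) present for 72 h from 48 h onwards. The high screen took MHC-I positive cells after a 24 h pulse of interferon-γ (IFN-γ) at 1 ng/mL, by sorts on days 18 and 25, and the low screen took MHC-I low cells after a pulse at 25 ng/mL, by sorts on days 7 and 15. The library named HLA-B high sorted holds the high-screen cells sorted with an HLA-B antibody, the high-screen control the unsorted cells of that screen, and the low-screen control the unsorted cells of the low screen. The labels give neither the harvest day of the unsorted cells nor whether they received IFN-γ, and the label and the count file of the low-screen control name different antibodies. Day, IFN-γ dose, screen and library therefore cannot be told apart in a comparison of the 2 unsorted pools.

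The values are PCR reads per sgRNA without molecular identifiers, given here as counts per 1000000 (CPM) of the matched reads of each library. Matched reads came to 34266318 in HLA-B high sorted, 22562241 for the high-screen pool and 98426251 for the low-screen pool. With 1 library per group no difference between groups had a replicate check, and every interval below covers counting over sgRNAs within these libraries only. In HLA-B high sorted only 49.6% of all sgRNAs were listed, against 97.7% and 93.4% in the high-screen and the low-screen control, so a sorted value rests on few sgRNAs of a gene. Safe-targeting sgRNAs, which cut sites of no known function, served as the reference for cutting alone.

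The members were covered well by the library except for 8 identifiers. The highest sgRNA number was 10, and 28 of the 49 members had 10 sgRNAs seen, 10 had 9, and 40 had at least 8. The exceptions with under 5 sgRNAs were NDUFA11, NDUFA13, NDUFC2, NDUFC2-KCTD14 and the 4 identifiers of NDUFA7 and NDUFB8, and under 5 sgRNAs were seen for 4.12% of all genes. The authors removed reads that aligned to several sgRNAs, and the part of that step in the missing sgRNAs was not tested. Values of these 8 identifiers are given but rest on 1 to 4 sgRNAs.

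In the unsorted pools the sgRNAs against complex I sat below the safe-targeting sgRNAs in both screens. The median sgRNA of the members stood at 2.59 CPM in the high-screen control, where the safe-targeting median was 3.86 CPM, and at 3.03 CPM in the low-screen control, where it was 4.20 CPM. For each of the 41 members with at least 5 sgRNAs, the median CPM of its sgRNAs was divided by the safe-targeting median of the same pool. The median of this level over the members was 0.68 for the high screen and 0.72 for the low screen, beside 1.00 and 0.95 over all genes. The subunits of the proteasome, which growing cells require, stood at 0.47 and 0.43 on the same scale, and those of respiratory complexes II to IV at 0.73 in each pool. So the median of the members lay between those of all genes and the proteasome, near that of the other respiratory complexes. In the low-screen control the lower quartile of complexes II to IV was 0.35, below the 0.55 of the members. In the high-screen control it was 0.57 beside 0.54. The large subunit of the mitochondrial ribosome had medians of 0.66 in the high-screen and 0.57 in the low-screen control.

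Few complex I genes were far below the safe-targeting reference in either pool. A level under 0.5 of the safe-targeting median was found for 8 of 41 members, 19.5%, in the high-screen control, where 9.75% of all genes had such a level. In the low-screen control it was found for 7 of 41, 17.1%, against 10.4% of all genes. Only NDUFB4, an accessory subunit of the membrane arm, and NDUFA4 were under 0.5 in both pools, 4.88% of the members against 4.48% of all genes. NDUFB4 stood at 0.26 in the pool of the high screen and 0.40 in that of the low screen, and NDUFA4 at 0.40 and 0.38. Of 29 proteasome genes, 17 were under 0.5 in each pool and 12 in both. With non-targeting sgRNAs, which do not cut, as the reference, 29 and 24 of the 41 members, most of them in each pool, were under 0.5. The shares of all genes were then 39.0% and 30.4%. Against the safe-targeting reference the count of low members thus differed from the share over all genes within each pool, and hardly at all where both pools were required.

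The order of the 3 classes was not the same in the 2 pools. Core subunits had a median level of 0.80 in the high-screen pool and 0.62 in the low-screen pool, and accessory subunits 0.70 and 0.73. Assembly factors had 0.56 and 0.90. Core genes were thus the highest class in one pool and the lowest in the other, and assembly factors the reverse. In the high-screen control 5 of 16 membrane-arm subunits (31.25%) and 1 of 15 matrix-arm subunits (6.67%) were under 0.5, beside 9.75% of all genes. In the low-screen control these counts were 3 of 16 (18.75%) and 3 of 15 (20%), beside 10.4% of all genes. The difference between arms was not tested.

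**Figure D1:**
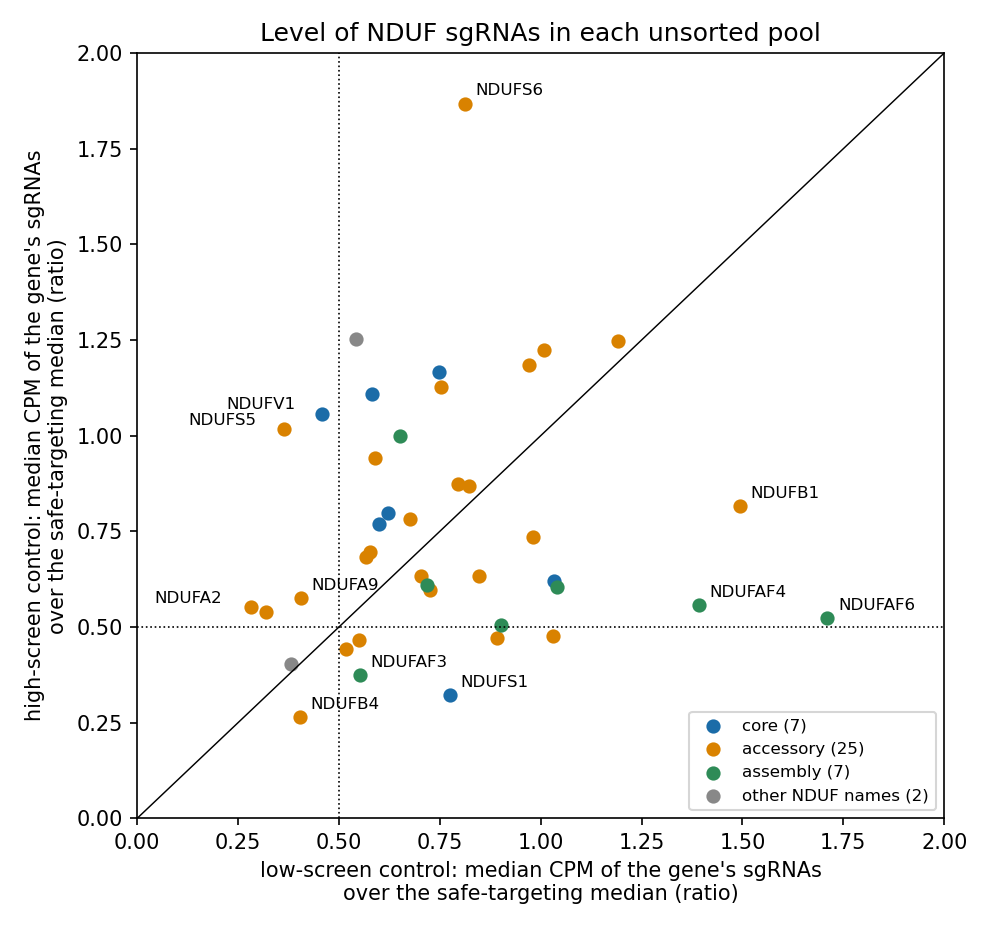
Each point is 1 of the 41 NDUF genes with at least 5 sgRNAs seen, placed by the median CPM of its sgRNAs over the safe-targeting median in the low-screen control (x axis) and in the high-screen control (y axis); the solid line marks equal levels and the dotted lines a ratio of 0.5. Most points lie below a ratio of 1 on both axes, and 5 of the 7 core and 1 of the 7 assembly genes lie above the line of equal levels.

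The direct comparison of the pools asked which members were rarer or more frequent in the high-screen than in the low-screen control. For each sgRNA with at least 10 reads in either pool, the log2 ratio of high-screen over low-screen reads was taken after scaling to total matched reads and adding 1 read, and a gene was described by its median. This kept 397 of the 408 member sgRNAs, of which 28 (7.05%, against 5.72% over all genes) reached 10 reads in the high-screen control only and 40 (10.1% against 5.67%) in the low-screen control only. An sgRNA that passed through the more shallowly read high-screen control alone had to be higher there, and all 40 that passed through the low-screen control alone were lower. The members' gene medians ran from −2.67 to 6.53 with a median of −0.37, beside −0.024 over all 20341 genes and −0.16 for the safe-targeting sgRNAs. Below the safe-targeting median lay 28 of 49 members, 57.1%, where 40.2% of all genes did. The middle of the members thus lay slightly below the safe-targeting sgRNAs, with members well to either side. With the counts of each gene summed instead, the members' median was −0.075, above the safe-targeting value of −0.13.

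Assembly factors and core subunits fell on opposite sides. The gene medians of the 7 assembly factors ran from −1.13 to −0.011 with a median of −0.79, and 6 of the 7 lay below the safe-targeting median. Those of the 7 core subunits ran from −2.26 to 1.48 with a median of 0.28, and 2 of the 7 lay below it. The 32 accessory identifiers had a median of −0.35, with 19 below it. By arm, the 17 matrix-arm identifiers had a median of 0.18 and the 21 of the membrane arm −0.37, with NDUFAB1, which sits in both arms, left out of both. The 12 other assembly factors in the library, such as ACAD9, ECSIT and TMEM126B, had a median of −0.079. No test compares classes here, since sgRNAs and genes of 1 pair of libraries are not replicates of a screen.

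**Figure D2:**
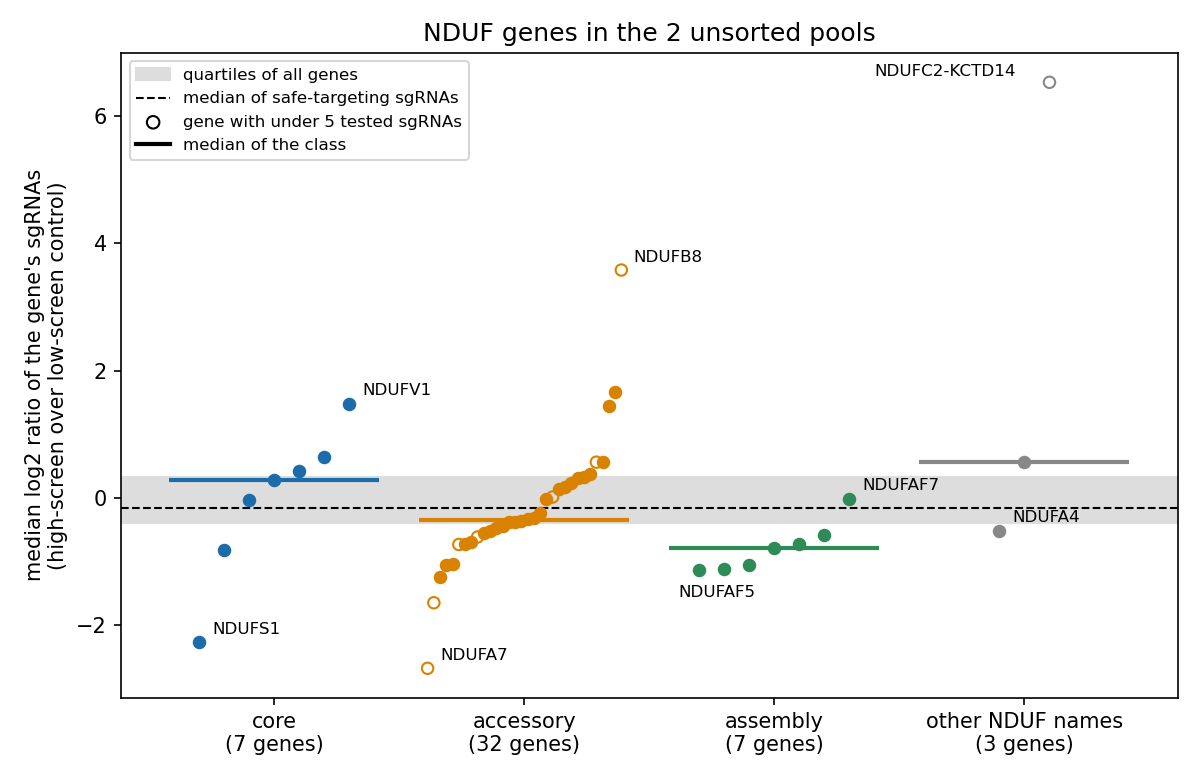
Each point is 1 NDUF gene identifier, with the median log2 ratio of its sgRNAs between the unsorted pools on the y axis, grouped by class; open points have under 5 tested sgRNAs, bars are class medians, the grey band spans the quartiles of all genes (−0.39 to 0.33) and the dashed line is the safe-targeting median (−0.16). The assembly factors sit low with little scatter, while core and accessory genes spread from below −2 to above 1.

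Redundant siRNA activity (RSA), the score the study used, ranks all gene-targeting sgRNAs by ratio and asks how closely the sgRNAs of 1 gene crowd at an end. Its value, the RSA p, is the smallest exact hypergeometric p over the ranks of a gene's sgRNAs. Calls needed an RSA p under 0.001 and 4 or more sgRNAs at the rank that gave it, and an exact p of that score over random ranks was adjusted over all genes by Benjamini-Hochberg. The p-values speak of the ranks in these 2 libraries, not of screens repeated. Lower in the high-screen control, RSA called 1 of 49 members, NDUFS1, 2.04% against 0.703% of all genes. Higher, it called 1, NDUFS5, also 2.04% against 0.801%. With 10 reads required in both pools RSA called 0 of 47 members in either direction, beside 0.494% of all genes lower and 0.395% higher. No member and no other gene passed an exact adjusted p of 0.05 in either direction. At an unadjusted exact p under 0.05, 10 members were lower, 20.4% against 6.14% of all genes, and 6 were higher, 12.2% against 6.47%. The 10 were NDUFS1, the membrane-arm subunits NDUFB2, NDUFB3, NDUFB4, NDUFB5 and NDUFB10, and the assembly factors NDUFAF1, NDUFAF3, NDUFAF5 and NDUFAF6. NDUFB3 and NDUFB5 each rested on 2 sgRNAs with 0 or 1 high-screen reads, which passed the minimum through the low-screen control alone. Such sgRNAs also stood among those behind NDUFS1, NDUFB4, NDUFB10, NDUFAF1, NDUFAF3 and NDUFAF6. The 6 higher members were NDUFS3, NDUFS5, NDUFV1, NDUFA9, the NDUFB8 identifier ENSG00000255339 and NDUFC2-KCTD14, which is not a complex I subunit. NDUFA9 and NDUFC2-KCTD14 each rested on 1 sgRNA and NDUFS3 on 2, all with 0 low-screen reads. These passed the minimum through the high-screen control alone, and such sgRNAs also stood among those behind NDUFS5 and NDUFV1. The NDUFB8 identifier rested on 2 sgRNAs. Neither unadjusted count was taken with 10 reads required in both pools.

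A looser call by size gave more members. A gene median at least 1 below the safe-targeting median was found for 4 of 49 members, 8.16% against 3.11% of all genes, and one at least 1 above it for 5, 10.2% against 6.83%. The 4 were NDUFS1, NDUFB4 and the identifiers ENSG00000167774 of NDUFA7 and ENSG00000166136 of NDUFB8. The 5 were NDUFV1, NDUFA2, NDUFS5, NDUFC2-KCTD14 and the identifier ENSG00000255339 of NDUFB8. The NDUFA7, NDUFB8 and NDUFC2-KCTD14 values rest on 1 or 2 tested sgRNAs, and with at least 5 tested sgRNAs required, 2 lower and 3 higher calls were left of 41 members. The share of all genes was then 2.53% lower and 5.80% higher. With the mean in place of the median, 10 members passed in each direction, beside 6.90% of all genes lower and 13.7% higher.

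NDUFS1 was the core gene that differed most between the pools. It encodes the largest subunit of the matrix arm, which holds several of the iron-sulphur clusters, and lies on the minus strand at chr2:206979541-207024233 (GRCh37). Its 10 sgRNAs summed to 19.7 CPM in the high-screen control, 45.6 CPM in the low-screen control and 25.1 CPM in HLA-B high sorted. Reads of sgRNAs numbered 4 and 5 were 64 and 152 in the low-screen control and 0 in the high-screen control, and sgRNAs 1 and 6 had 507 and 399 against 3 and 6. The 3 sgRNAs numbered 2, 7 and 9 went the other way, with log2 ratios of 5.46, 1.87 and 1.33. The median of −2.26 thus came from 7 sgRNAs below 0 and 3 above. RSA gave p = 5.41e-05 with 5 sgRNAs at its best rank, exact p = 0.000402 and an exact adjusted p of 0.43. Of these 5 sgRNAs 4 passed the minimum of 10 reads through the low-screen control alone, the pool in which they were higher. The call was lost with 10 reads required in both pools, at an exact hypergeometric RSA p of 0.0465.

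NDUFV1 and the other core subunits were mostly higher in the high-screen control. NDUFV1, which binds the flavin and oxidises NADH, summed to 46.7 CPM in the high-screen and 22.9 CPM in the low-screen control, with a median log2 ratio of 1.48 over 9 sgRNAs of which 7 were above 0. NDUFS8, an iron-sulphur subunit next to the membrane, summed to 44.5 and 28.0 CPM, with 8 of 9 sgRNAs above 0 and a median of 0.64. Both genes had the same direction in most of their sgRNAs, and neither passed the RSA call.

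NDUFS3, a scaffold of the ubiquinone-binding module, had an RSA p of 0.000427 on the higher side that rested on 2 sgRNAs and so was no call, with an exact adjusted p of 0.51. Those 2 sgRNAs had 137 and 310 reads in the high-screen pool but 0 in the low-screen pool, while its gene median was 0.28. NDUFV2, an iron-sulphur subunit of the NADH module, had a median of −0.026 with 5 of 10 sgRNAs on each side of 0. NDUFS7, which carries the last iron-sulphur cluster before ubiquinone, had a median of −0.81 although its summed CPM hardly differed, 38.8 in the high-screen and 37.2 in the low-screen control. So of the core genes only NDUFS1 and NDUFS7 lay below the safe-targeting median.

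Among the accessory subunits NDUFS5 was called on the higher side. NDUFS5 sits on the intermembrane face of the membrane arm and lies on the plus strand at chr1:39491990-39500308 (GRCh37). Its 10 sgRNAs summed to 43.9 CPM in the high-screen control, 21.9 CPM in the low-screen control and 15.4 CPM in HLA-B high sorted. The 3 sgRNAs numbered 1, 2 and 5 had 11, 42 and 15 high-screen reads but 0 low-screen reads, and 8 of 10 had a ratio above 0. Its median log2 ratio was 1.66, with RSA p = 0.000852 at 6 sgRNAs and an exact adjusted p of 0.55. Of these 6 sgRNAs the same 3, numbered 1, 2 and 5, passed the minimum through the high-screen control alone. The call was lost without the minimum of 10 reads, at an exact hypergeometric RSA p of 0.00151, with a minimum of 50 reads, at 0.0301, and with 10 reads required in both pools, at 0.0195.

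Apart from NDUFB4, the other accessory genes past the size call rested on 5 or fewer tested sgRNAs. NDUFA2, a small matrix-arm subunit, summed to 17.6 CPM in the high-screen and 7.83 CPM in the low-screen control, with a median of 1.44 over 5 tested sgRNAs. NDUFB4 summed to 28.5 and 44.3 CPM, with a median of −1.24 and 6 of 8 tested sgRNAs below 0. The NDUFB8 identifier ENSG00000255339 summed to 8.07 and 0.884 CPM over 2 sgRNAs, and ENSG00000166136 to 6.25 and 9.71 CPM over 3. The 2 identifiers under the name NDUFB8, the first of them a readthrough gene, thus had medians of opposite sign. These were 3.58 and −1.64, each over 2 tested sgRNAs. The NDUFA7 identifier ENSG00000167774 was a single sgRNA with 5 and 148 reads. NDUFC2-KCTD14 was likewise a single sgRNA, with 34 reads in the high-screen pool but 0 in the low-screen pool.

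The remaining accessory subunits stayed within 1 of the safe-targeting median. NDUFA6, a matrix-arm subunit that binds the acyl carrier protein NDUFAB1, had a median of −1.06 with 8 of 9 sgRNAs below 0. NDUFB2 had −1.04 with 8 of 10 below 0, and NDUFB10 −0.73 with all 8 tested sgRNAs below 0, in 23.98 against 42.7 summed CPM. NDUFAB1 itself, which also serves mitochondrial fatty acid synthesis, had −0.43 with 6 of 10 below 0.

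The assembly factors all had gene medians below 0, and all but NDUFAF7 lay below the safe-targeting median. NDUFAF5, which hydroxylates the core subunit NDUFS7, summed to 28.1 CPM in the high-screen and 47.7 CPM in the low-screen control, with a median log2 ratio of −1.13. NDUFAF3, an early factor of the ubiquinone-binding module, summed to 14.9 and 28.7 CPM with a median of −1.12. Its partner NDUFAF4 summed to 29.0 and 52.1 CPM with a median of −0.79. In each of these 3 genes 7 of 10 sgRNAs were below 0.

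In summed CPM the remaining factors gave the same direction with one exception. NDUFAF6 summed to 38.9 CPM in the high-screen and 67.3 CPM in the low-screen control, with a median of −1.05. NDUFAF1, a chaperone of the membrane arm, summed to 19.6 and 31.5 CPM with 8 of 9 sgRNAs below 0 and a median of −0.72. NDUFAF2, a late factor related to NDUFA12, summed to 27.1 and 33.5 CPM with a median of −0.58. The exception was NDUFAF7, an arginine methyltransferase, at 41.4 and 40.1 CPM. Its median of −0.011 was below 0 but above the safe-targeting median. Summed CPM was higher in the high-screen control for 1 of 7 assembly factors, 5 of 7 core subunits and 12 of 32 accessory identifiers, and for 49.9% of all genes. RSA called 0 of the 7 NDUFAF genes, of which 4 had an unadjusted exact p under 0.05 on the lower side, and the size rule called 0. In NDUFAF1, NDUFAF3 and NDUFAF6 the sgRNAs behind that p included some that passed the minimum through the low-screen control alone. Of the 12 other assembly factors RSA called 0, with 1 at an unadjusted exact p under 0.05 on each side, and the size rule called 1 as lower, ATP5SL, with a median of −1.38. Over all genes the lower side held 0.703% by RSA, 3.11% by size and 6.14% at the unadjusted level.

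The sort compared HLA-B high sorted with the high-screen control and asked which knockouts were more or less frequent among cells with high HLA-B. NDUFA9 was the 1 member called as more frequent among the sorted cells and NDUFS6 the 1 called as less frequent. The members held 0.193% of matched reads in HLA-B high sorted, 0.155% in the high-screen pool and 0.167% in the low-screen pool. Of the 408 member sgRNAs 357, from 48 members, had the 10 reads before sorting that the comparison required. RSA called 1 of these 48 members as higher, NDUFA9, 2.08% against 0.310% of all genes, and 1 as lower, NDUFS6, 2.08% against 0.414%. The smallest exact adjusted p of any member was 0.46 on the higher side and 0.80 on the lower side. At an unadjusted exact p under 0.05, 4 members were higher (8.33% against 5.22% of all genes) and 2 lower (4.17% against 5.77%). Higher were NDUFA9, NDUFA12, NDUFB4 and NDUFS4, and lower NDUFS6 and NDUFB4. All 6 of these calls at the unadjusted level fell among accessory subunits, which were 31 of the 48 tested members, with NDUFB4 counted on both sides. The lower call of NDUFB4 and the higher call of NDUFS4 each rested on 1 sgRNA. Of 22 genes of complexes II to IV RSA called 0 in the sort, with 2 lower and 0 higher at the unadjusted level, and in the pools it called 0 lower and 2 higher.

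NDUFA9 was higher in the sorted cells over most of its sgRNAs. The subunit sits where the matrix arm meets the membrane arm, beside the ubiquinone site, and lies on the plus strand at chr12:4758261-4803483 (GRCh37). Its sgRNAs summed to 170.7 CPM in HLA-B high sorted, 54.4 CPM in the unsorted cells of the same screen and 39.5 CPM in the low-screen control. Of its 10 sgRNAs 9 were listed in HLA-B high sorted, and the sgRNA with the most sorted reads held 36.9% of them. Of the 9 tested sgRNAs 7 had a log2 ratio above 0 and 4 a ratio above 1, the highest 3.09, 2.55 and 2.25. The median was 0.97, where the median over all genes was −4.54. RSA gave p = 0.000101 with 7 sgRNAs at its best rank, exact p = 0.000576 and an exact adjusted p of 0.46.

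The NDUFA9 call was lost against the other unsorted pool, while its ratio stayed high. With the low-screen control as the reference, RSA gave NDUFA9 an exact hypergeometric p of 0.00121 with 6 sgRNAs, over the limit, and called 0 of 48 members higher, where it called 0.370% of all genes. It also called 0 of 48 lower, against 0.596% of all genes. At an unadjusted exact p under 0.05, 6 members were higher there (12.5% against 5.09% of all genes) and 2 lower (4.17% against 5.76%). Both comparisons share the sorted library. The 2 sgRNAs of NDUFA9 with 242 and 28 reads in the high-screen control had 0 reads in the low-screen control, which left 8 for this comparison. Of these 8 sgRNAs 6 were above 0, and the median of 0.55 lay 6.21 above the safe-targeting median, against 5.46 above it in the comparison with the high-screen control.

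NDUFS6 had the smallest RSA p of the members on the lower side of the sort. This accessory subunit binds zinc, belongs to the NADH module and lies on the plus strand at chr5:1801521-1816162 (GRCh37). Its sgRNAs summed to 19.7 CPM in HLA-B high sorted, 63.96 CPM in the high-screen pool and 44.8 CPM in the low-screen pool. Only 2 of its 10 sgRNAs were listed in the sorted library, with 232 and 443 reads, while 5 of the 8 that were not had 55 or more reads before sorting. RSA gave p = 0.000753 with 4 sgRNAs and an exact adjusted p of 0.80. That call was lost with a pseudocount of 5, at an exact hypergeometric RSA p of 0.00108, with the low-screen control as the reference, at 0.00432, and when the most extreme sgRNA of every gene was left out, since 3 sgRNAs then stood at its best rank.

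**Figure D3:**
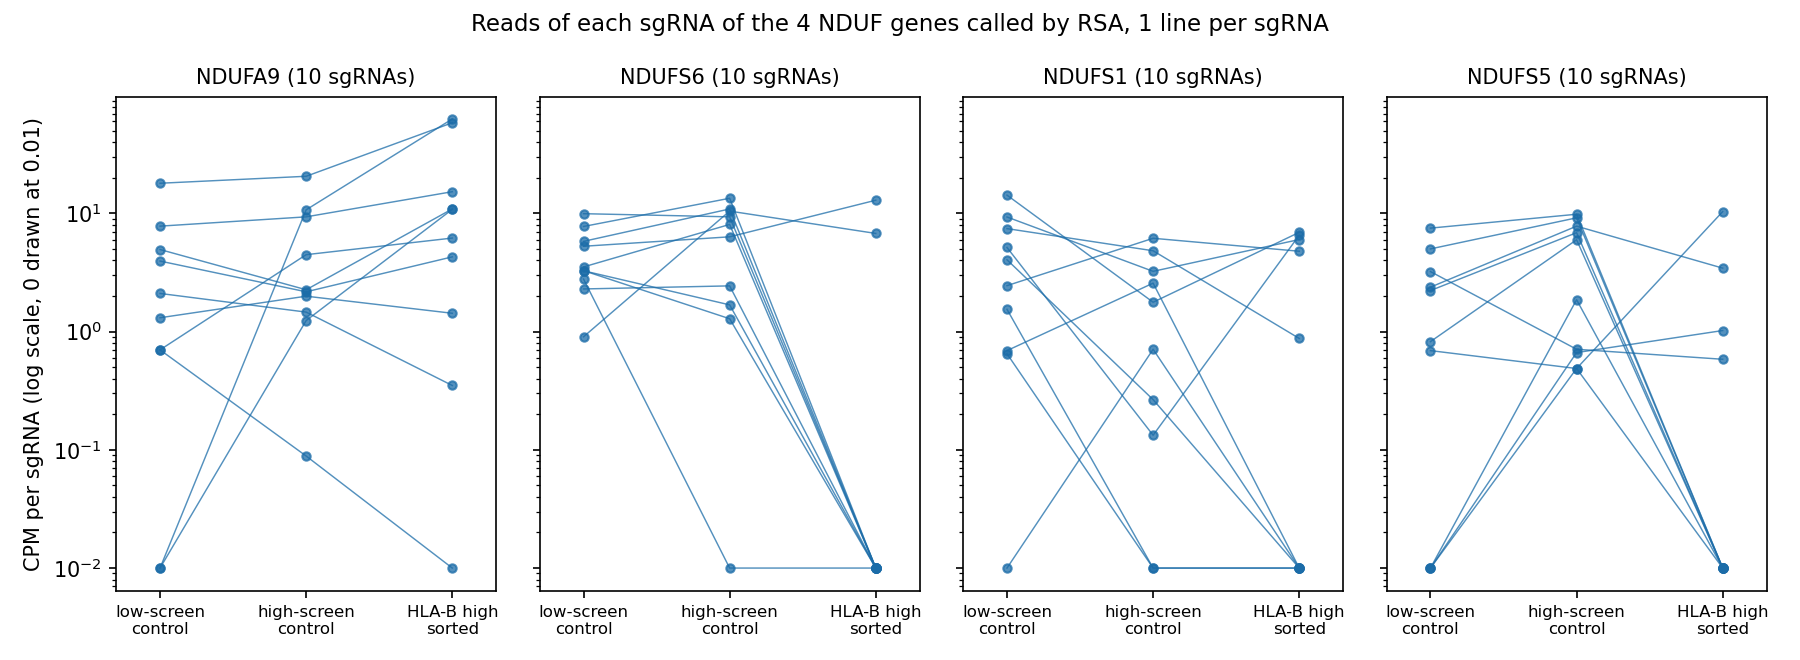
Each line follows 1 sgRNA across the low-screen control, the high-screen control and HLA-B high sorted for the 4 genes called by RSA, with CPM on a log axis on which 0 is drawn at 0.01. The sorted library lists 9 of 10 sgRNAs of NDUFA9, 2 of 10 of NDUFS6, and 5 and 4 of 10 of NDUFS1 and NDUFS5.

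Of the other large sorted sums, those of NDUFV1, NDUFS4 and NDUFA1 came mainly from single sgRNAs. NDUFV1 summed to 172.2 CPM in HLA-B high sorted against 46.7 CPM in the high-screen control, and 90.6% of its sorted reads belonged to the sgRNA numbered 10, with 5346 reads. NDUFS4, an accessory subunit of the NADH module, summed to 150.2 against 36.5 CPM, with 95.01% in 1 sgRNA. NDUFA1, a small membrane-arm subunit, summed to 102.8 against 30.2 CPM, with 78.3% in 1 sgRNA. NDUFB7, on the intermembrane face, was less uneven, with 118.0 against 56.6 CPM and 40.7% in 1 sgRNA. The highest sorted sums thus differed in how many sgRNAs carried them, and NDUFA9 and NDUFB7 had the lowest share in 1 sgRNA among these genes. NDUFA12, with a smaller sorted sum of 50.3 against 33.1 CPM, had 30.9% in 1 sgRNA. Of its 10 tested sgRNAs 5 lay on each side of 0 and 4 had a log2 ratio above 1.

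The same unevenness held across the members and across the genome. Of the 45 members with sorted reads 30, 66.7%, had over 50% of them in 1 sgRNA, and 69.6% of all genes did. Summed CPM was higher in HLA-B high sorted than in the high-screen control for 22 of 49 members, 44.9% against 33.3% of all genes. By class these were 5 of 7 core subunits, 14 of 32 accessory identifiers and 3 of 7 assembly factors. The sgRNA with the most sorted reads of each gene was then left out of the sorted sum but kept in the control sum. On that uneven footing, which lowers the count, 3 of 49 members were still higher, 6.12% against 5.34% of all genes. At the low end NDUFB5, a membrane-arm subunit, summed to 2.33 CPM in HLA-B high sorted against 46.4 CPM in the high-screen control, and NDUFAF3 to 2.04 against 14.9 CPM. The 4 members with no sorted read were NDUFC2, NDUFC2-KCTD14 and the 2 identifiers of NDUFA7, all with 1 or 2 sgRNAs seen.

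**Figure D4:**
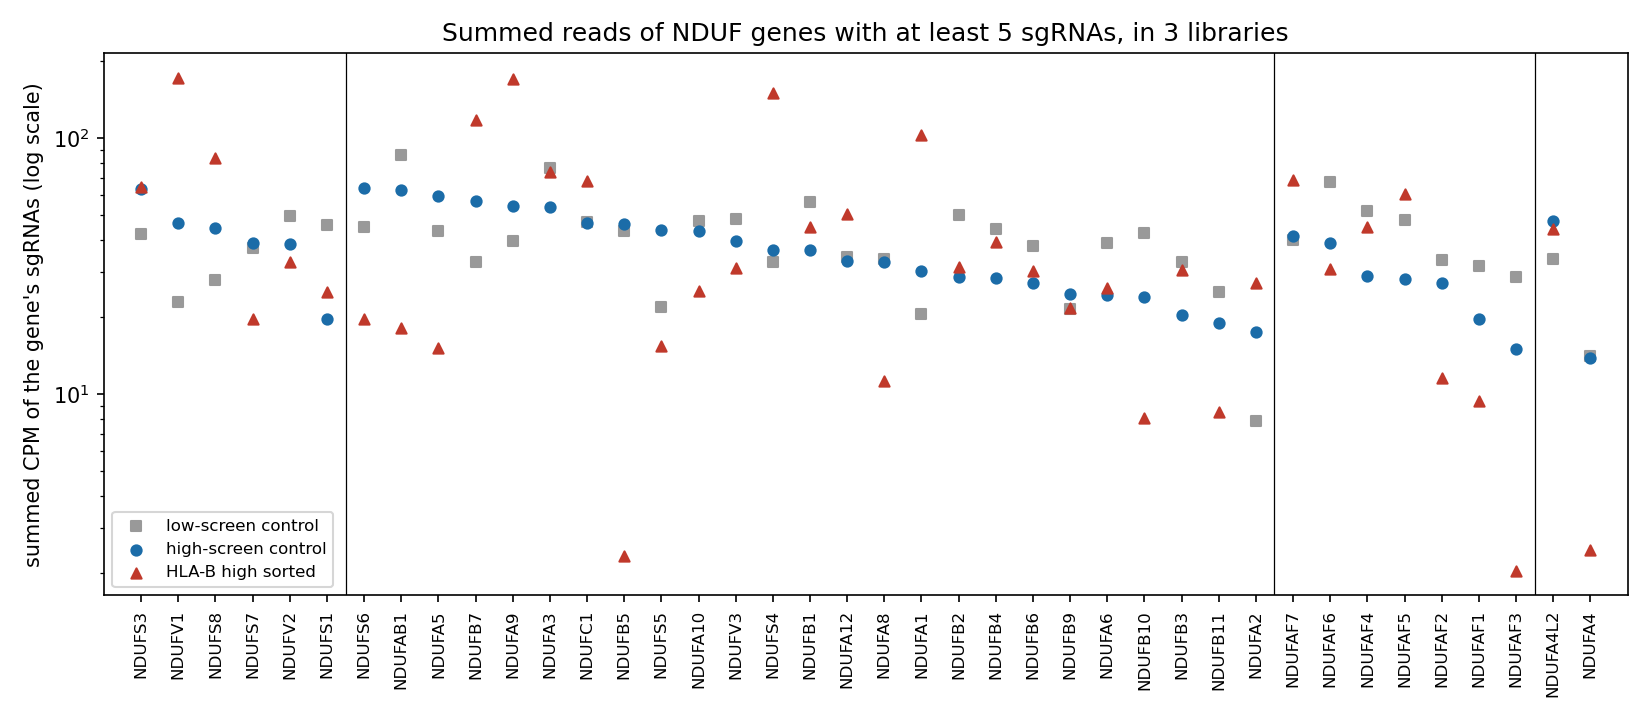
For the NDUF genes with at least 5 sgRNAs seen, 1 core gene left out, the summed CPM of its sgRNAs is drawn on a log axis in the low-screen control (squares), the high-screen control (circles) and HLA-B high sorted (triangles), with core, accessory, assembly and other NDUF names separated by vertical lines from left to right. The sorted values spread far more than the pools, from 2.04 CPM for NDUFAF3 to 172.2 CPM for NDUFV1.

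The sgRNA shares showed the members as a set. Of the 357 tested sgRNAs 179, 50.1% (44.8 to 55.4, exact 95% interval over sgRNAs), were not listed in HLA-B high sorted, beside 48.5% of all gene-targeting and 47.6% of safe-targeting sgRNAs. An sgRNA with few reads before the sort is lost more easily, so the share was also taken over all gene-targeting sgRNAs with like counts in the high-screen control, which gave 52.7%. By class the share was 48.3% for core, 48.6% for accessory and 55.7% for assembly genes, beside 49.5%, 52.5% and 56.2% at like counts. In each class the share at like counts lay inside the counting interval of the observed share.

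At the other end, member sgRNAs were gained more often than those of all genes, by less against the low-screen control. A log2 ratio above 1 was found for 65 of 357, 18.2% (14.3 to 22.6), where 12.6% of all gene-targeting and 11.7% of safe-targeting sgRNAs had one, and 12.7% had one at like counts. The share was 21.7% (12.1 to 34.2) for core, 19.1% (14.1 to 24.9) for accessory and 14.8% (6.98 to 26.2) for assembly genes. At like counts it was 12.6%, 12.6% and 12.7%, inside the core and assembly intervals and below the accessory one. The 65 sgRNAs came from 36 of 48 members, and without NDUFA9 the share was 17.5%. Against the low-screen control the members' share was 15.7%, beside 13.2% of all gene-targeting sgRNAs, and no interval was taken there. The sgRNAs of a gene share that gene and all come from 1 sort, so the intervals are narrower than those over repeated sorts would be, and no test was made.

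The sgRNAs against the other respiratory complexes had lower values in the sorted cells than those against complex I. Of the sgRNAs against complexes II to IV 63.5% (55.4 to 71.0) were not listed in HLA-B high sorted, against 52.8% at like counts, and 8.97% (4.99 to 14.6) had a ratio above 1. For the large subunit of the mitochondrial ribosome, which makes the mitochondrially encoded subunits of the chain, 62.5% were not listed and 8.17% were above 1. For the proteasome these shares were 75.5% and 4.49%. The members' share not listed lay below each of these 3 lists and their share above 1 lay above each, as values from 1 sort with the difference between lists not tested. The share above 1 among the 12 other assembly factors of complex I was 10.9% (5.56 to 18.7), lower than the 14.8% of the NDUFAF genes and within its interval.

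**Figure D5:**
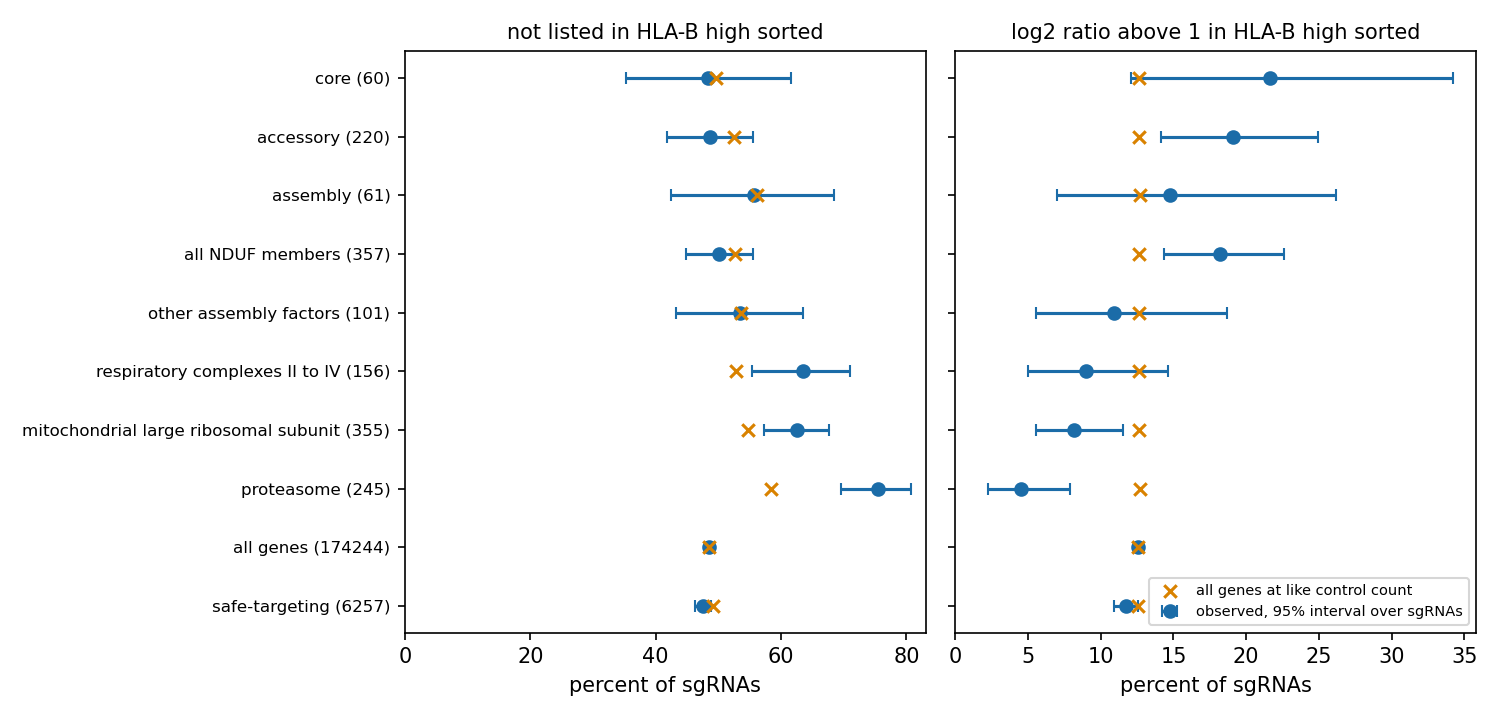
The left panel gives the percent of sgRNAs not listed in HLA-B high sorted and the right panel the percent with a log2 ratio above 1 against the high-screen control, for each gene list (number of tested sgRNAs in brackets); circles with bars are observed shares with exact 95% intervals over sgRNAs, and crosses are the shares of all genes at like control counts. The 357 NDUF sgRNAs lie at 50.1% and 18.2%, while complexes II to IV, the mitochondrial ribosome and the proteasome lie to the right on the left panel and to the left on the right panel.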

How the data were processed

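The authors deposited raw counts of reads per sgRNA. Per the study's methods the authors trimmed reads with fastx clipper or cutadapt, mapped them with Bowtie2 to the sgRNA library and removed multi-aligning reads. Besides cutadapt and Bowtie2 the submitters' processing notes give bcl2fastq, with versions not given in the sources used here. Unmatched reads (12.1% to 21.9%) were left out, and an sgRNA not listed was given a count of 0. No genome build was involved. Gene positions came from GENCODE release 44 lifted to GRCh37, and all 49 identifiers matched. sgRNA sequences were not analysed here.

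Counts were scaled to the mean total of the 2 libraries compared, with a pseudocount of 1. Python 3.11.15, numpy 2.4.6, pandas 2.3.3, scipy 1.17.1 and matplotlib 3.10.9 were used. RSA used sgRNAs on the tested side of 0, one-sided from each end, over all genes, and was tested on simulated data. Shares at like counts used 20 bins of the control count. Intervals are Clopper-Pearson at 95%.

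The members, classes and comparison lists were chosen with earlier results of these data known. The level measure, the share above 1 and the like-count shares were added after the data were seen. Full values are given for members called by RSA or by size, for the 3 lowest and 3 highest of each class in the pools, and for NDUFA9. Others were named after their values were seen. The values of 1 gene are not reported here.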

Additional observations from a re-analysis of the deposited data

How the results depend on the processing

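Alternatives changed the pseudocount, the minimum of reads, the scaling, the summary per gene, the RSA rule, the reference pool and the members counted, and those for the level, the share above 1, the minimum of 5 tested sgRNAs and the minimum of reads in both pools were chosen after seeing the data. Of 110 summary values under an alternative, 85 stayed within 1.5 times or within the error. None of the log2 medians among them changed sign, and the other values are counts or shares, which cannot. Leaving out NDUFA4, NDUFA4L2 and NDUFC2-KCTD14 could not change an RSA count, since none of them was called. Scaling to safe-targeting reads nearly cancels in the size calls, which are taken from the safe-targeting median. The error of a median is its standard error over genes, which for the 7 core genes was 0.45. A move of the core median from 0.28 to 0.67 with the mean thus counted as within it. No member was called at an exact adjusted p of 0.05, so each of the 4 RSA counts fell from 1 to 0. The higher count in the pools was 0 without a minimum and with 50 reads, and 2 with RSA p alone, which adds NDUFS3. With 10 reads required in both pools the RSA counts there were 0 lower and 0 higher (0.494% and 0.395% of all genes) and the lower size calls 2 (1.95%). In the sort the lower count was 0 with a pseudocount of 5, with the most extreme sgRNA left out and against the low-screen control, and the higher count was 0 against the low-screen control. With summed counts the members' pool median was −0.075, the accessory median −0.11 and the lower size calls 2 (1.15% of all genes), and both medians lay above the safe-targeting value of −0.13 rather than below it. With the mean over sgRNAs the size calls were 10 lower and 10 higher (6.90% and 13.7% of all genes) and the assembly median −0.58. With at least 5 tested sgRNAs they were 2 and 3. The share not listed was 43.9% with a minimum of 50 reads, beside 42.1% of all genes. With non-targeting sgRNAs, which do not cut, as the reference, 29 and 24 of 41 members were under 0.5 in the high-screen and low-screen control, 39.0% and 30.4% of all genes. The causes were not tested. No paired analysis was possible because each group held 1 library. A median of 58.5 reads per member sgRNA in the high-screen control limits the sorted ratios against that pool.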
